A study of Mus musculus with 33 samples.

Results

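Ribosome biogenesis and nucleolus names a set of 46 protein-coding genes whose products make and mature ribosomal RNA. The genes were picked by symbol from what their products are known to do, at a time when earlier results of these data were known. The shares of all genes given beside their counts are thus no independent test of the list. All 46 were found among the 50420 gene IDs of the 6 tables and passed the filter on low counts in each. By the step they serve they fall into RNA polymerase I (3 genes), organisers and chaperones of the nucleolus (5), the box C/D small nucleolar ribonucleoprotein, or snoRNP (4), the box H/ACA snoRNP (4), small subunit processing (18) and large subunit processing (12).

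Total RNA depleted of ribosomal RNA was sequenced from liver and kidney of male mice that were 15 to 23 weeks old. Tunicamycin (TM), an antibiotic used to cause stress of the endoplasmic reticulum (ER), stops the first step in building the sugar chains that secreted proteins carry. TM mice received 1 mg of TM per kg of body weight in DMSO by intraperitoneal injection, and control mice received DMSO. The labels place collection at 24 h after injection, whereas the methods of the study state a shorter interval, so the interval is uncertain. The groups were B6 (strain C57BL/6J) TM and control, CAST (strain CASTEiJ) TM and control, and F1 (F1_C57BL/6JxCASTEiJ) TM and control, the F1 being offspring of B6 mothers and CAST fathers. Liver had 2 B6 TM, 3 B6 control, 3 CAST TM, 2 CAST control, 2 F1 TM and 3 F1 control libraries, and kidney had 3 of each of the 6 groups. Both strains are inbred.

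Ribosomes are built in the nucleolus, where RNA polymerase I transcribes a long precursor of ribosomal RNA. Box C/D snoRNPs guide ribose methylation of the precursor and box H/ACA snoRNPs guide its pseudouridylation, while processing factors fold, cut and export the small and the large subunit separately. The genes are known for their high activity in growing and dividing cells, and many are textbook targets of the transcription factor MYC, which binds the E-box motif.

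Promoters are shown for the 4 genes with the largest mean change among those that hold a searched motif, since these genes moved together. Windows of 300 bases (250 before and 50 after each gene start) come from RefSeq on build GRCm38.p6, while the reads were aligned to the genomes of the strains, so the coordinates hold for the RefSeq table alone, and 40 of the 46 genes matched. The Nop56 window lies at chr2:130274162-130274461 (plus strand), the Wdr43 window at chr17:71615965-71616264 (plus strand), the Tsr1 window at chr11:74897830-74898129 (plus strand) and the Ltv1 window at chr10:13193088-13193387 (minus strand). Each is printed from 5′ to 3′ on the strand of the gene, with matches in capitals to the E-box CACGTG or to CCAAT, which reads ATTGG on the other strand.
Nop56: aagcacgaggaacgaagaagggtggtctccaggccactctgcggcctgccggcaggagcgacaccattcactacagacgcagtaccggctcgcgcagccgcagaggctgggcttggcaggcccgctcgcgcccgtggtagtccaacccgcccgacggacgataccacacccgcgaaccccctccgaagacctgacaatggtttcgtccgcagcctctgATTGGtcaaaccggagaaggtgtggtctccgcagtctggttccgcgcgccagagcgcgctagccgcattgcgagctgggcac
Wdr43: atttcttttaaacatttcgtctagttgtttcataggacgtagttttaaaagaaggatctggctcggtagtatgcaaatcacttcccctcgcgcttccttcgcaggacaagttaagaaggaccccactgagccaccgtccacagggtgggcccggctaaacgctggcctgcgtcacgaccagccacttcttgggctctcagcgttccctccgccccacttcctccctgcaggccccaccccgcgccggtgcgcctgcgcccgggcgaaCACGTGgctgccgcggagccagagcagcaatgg
Tsr1: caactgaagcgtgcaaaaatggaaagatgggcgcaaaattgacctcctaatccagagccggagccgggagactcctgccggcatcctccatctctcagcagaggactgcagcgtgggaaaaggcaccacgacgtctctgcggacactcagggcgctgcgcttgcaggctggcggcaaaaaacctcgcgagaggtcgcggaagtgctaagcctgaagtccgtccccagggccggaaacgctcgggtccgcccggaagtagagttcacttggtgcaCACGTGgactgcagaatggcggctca
Ltv1: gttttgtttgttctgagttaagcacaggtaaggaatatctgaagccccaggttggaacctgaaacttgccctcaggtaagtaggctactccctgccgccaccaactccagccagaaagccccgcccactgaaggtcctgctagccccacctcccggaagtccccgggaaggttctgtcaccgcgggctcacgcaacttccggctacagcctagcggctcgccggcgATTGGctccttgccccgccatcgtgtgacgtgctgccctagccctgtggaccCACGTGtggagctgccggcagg

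An E-box stood in the window of 11 of the 40 genes (27.5%), against 8.09% of all 27025 genes with a window. These 11 were Aatf, Ltv1, Mybbp1a, Nop2, Pes1, Pno1, Tsr1, Utp18, Utp20, Utp4 and Wdr43, and in 8 of them the match lay within the 50 bases after the start. CCAAT, searched on both strands like the other motifs, was in 16 genes (40%), against 41.1% of all genes. TGATGNAA, a sequence bound by ATF4 with a C/EBP partner, was in 1 gene, Nop14 (2.5%), against 4.51% of all genes. The ER stress response element, which holds a CCAAT box of its own, was in none of the 40 and in 0.137% of all genes. A further palindrome was searched for and was in none. Nop58 and Gnl3, the genes with the largest changes, had no match to any motif searched. A match describes letters in a window and is not a measured binding site.

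Counts per library ranged over 3355262 to 23094521 reads, with a median of 13143216, and the smallest library was F1 kidney control 1. The ER chaperone gene Hspa5, its relative Hyou1, Ddit3 and Herpud1, all known targets of ER stress, were called higher with TM in all 6 comparisons. Summed counts of 10 hepatocyte markers had a median of 47193 CPM (counts scaled to an equal library total) in liver TM libraries and 76228 in liver control libraries, against 4231 in kidney TM and 4909 in kidney control libraries. Kidney markers (10 genes) summed to 6221 to 12414 CPM in kidney TM libraries and 4059 to 14176 in kidney controls, and to at most 36.4 in liver TM and 25.8 in liver control libraries. In whole tissue, fewer cells of a type and less RNA per cell cannot be told apart. Among 12 proliferation markers, 1, 2 and 0 were called higher in B6, CAST and F1 liver and 0, 1 and 2 in kidney, and 3 were called lower in B6 kidney. In liver their sum was higher in every TM library than in every control library of the same genotype, at 83.3 to 97.6 CPM in B6 TM against 49.8 to 67.5 in B6 control, 35.9 to 50.4 in CAST TM against 23.5 to 27.8 in CAST control, and 81.7 to 105 in F1 TM against 14.6 to 44.3 in F1 control libraries. In kidney it was lower in every B6 TM library (66.6 to 74.7) than in B6 controls (83.6 to 93.8), and the groups overlapped in CAST (50.4 to 66.1 in TM against 45.1 to 71.3 in control) and F1 (77.8 to 96.4 in TM against 74.3 to 110 in control). The summed proliferation markers were thus higher with TM in liver, as were most of the 46 genes, but single markers were mixed. Positive changes in liver were found for 7 of 12 tested markers in B6, 8 of 10 in CAST and 7 of 12 in F1. The lowest F1 control sum, 14.6, came from F1 liver control 2, where 61.5% of reads were on the gene Gm10800. In that library the 46 genes summed to 123 CPM, against 629 in F1 liver control 1 and 694 in control 3. Leukocyte markers (12 genes) summed to 109 to 501 CPM in liver TM, 23.3 to 275 in liver control, 75.3 to 153 in kidney TM and 93.8 to 147 in kidney control libraries. Their groups overlapped within each genotype in liver and in B6 kidney, and in kidney every TM library was below every control library in CAST (90.8 to 113 in TM against 115 to 147 in control) and in F1 (75.3 to 90.3 in TM against 93.8 to 120 in control). The part of these markers in the results was not tested. There were 5 libraries that stood apart by reads on olfactory and vomeronasal receptor genes (over 400 CPM) or on Gm10800 (over 10% of reads), namely B6 liver TM 3, B6 liver control 2, F1 liver TM 2, F1 liver control 2 and F1 kidney control 1.

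The first question was whether the genes responded to TM in each tissue and genotype. Most genes were called higher with TM in most comparisons. Of 276 pairs of gene and comparison, 270 had a positive log2 fold change, 191 were called higher, and none was called lower. Calls were made in limma on log2(normalized count + 1), where the adjusted p had to be under 0.05 and the fold change 1.5 or more, so fold changes of genes with low counts are understated. None was lower even at an unadjusted p below 0.05, and edgeR and DESeq2 called none lower either. The 6 negative values belonged to Dkc1 in CAST liver (log2 -0.16 ± 0.26 SE, adjusted p = 0.7), Nhp2 in B6 and CAST kidney, and Nop10 in F1 liver, B6 kidney and CAST kidney. These p-values measure the spread between the libraries, and the authors had left out libraries that did not group with their treatment, which narrows that spread.

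In B6 liver, 29 of the 46 genes were called higher, where 4.8% of all 21741 tested genes were. In CAST liver it was 35 (all genes: 11.1%) and in F1 liver 23 (3.42%). Kidney gave 33 in B6 (9.73%), 35 in CAST (8.69%) and 36 in F1 (7.54%). None of the 46 was called lower, against 6.45%, 10.4% and 4.15% of all genes in B6, CAST and F1 liver and 7.77%, 4.7% and 2.57% in kidney. The median log2 fold change of the 46 was 1.21, 1.08 and 1.35 in B6, CAST and F1 liver, where that of all tested genes was 0.09, -0.04 and 0.21. In kidney it was 1.02, 1.11 and 1.13, where that of all tested genes was -0.01, -0.05 and -0.13. In F1 liver the calls over all genes were 777 higher and 943 lower, and with TMM scaling, which moved the median of all genes to 0.04, they were 659 higher and 1366 lower, with 20 of the 46 higher. With the median of all genes set to 0 they were 576 higher and 1305 lower in F1 liver, with 18 of the 46 higher. In F1 kidney they were 1815 higher and 618 lower as tested, and 2628 higher and 467 lower with that median set to 0, with 38 of the 46 higher. Every TM library stood above every control library for 44, 43 and 39 of the 46 genes in B6, CAST and F1 liver, against 18.2%, 25.4% and 15.2% of all genes. In kidney that held for 40 genes in each genotype, against 20.3%, 18% and 19.5% of all genes. The opposite held once, for Nhp2 in B6 kidney, against 18.7% of all genes there. It held for none of the 46 in B6, CAST and F1 liver, against 19.9%, 25.6% and 15.9% of all genes, and for none in CAST and F1 kidney, against 14.9% and 14.1%.

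The liver counts leaned on single libraries. In each fit named in the next sentences, calls higher over all genes moved the same way as those of the 46. B6 liver had 1044 of all genes called higher as tested, 825 without control 1 and 655 without control 3. F1 liver had 777 as tested, 504 without control 1 and 456 without control 3. F1 kidney had 1815 as tested and 2328 without control 1. The counts that follow are of the 46 genes. B6 liver gave 18 calls without control 1, 19 without control 3 and 15 without TM 1. CAST liver gave 20 without control 2. F1 liver gave 12 without control 1, 11 without control 3 and 5 without TM 1, and 41 without the 2 libraries that stood apart, a fit with a single TM library that is assumed to vary like the controls. B6 liver without its 2 such libraries, which also leaves a single TM library, gave more calls than as tested. F1 kidney without control 1 of that kind gave 39. Without the trend of variance on level in limma, B6 and F1 liver gave 0 calls over all genes. There 33 and 30 of the 46 had an unadjusted p below 0.05, against 4148 of 21741 and 2827 of 22731 of all genes. By contrast, edgeR called 26 and 20 of the 46 and DESeq2 32 and 31. In the fits that each left out 1 library, 33 of the 33 calls in B6 kidney, 26 of 35 in CAST kidney and 23 of 36 in F1 kidney were made every time, and 15 of 29, 19 of 35 and 5 of 23 in B6, CAST and F1 liver.

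**Figure D1:**
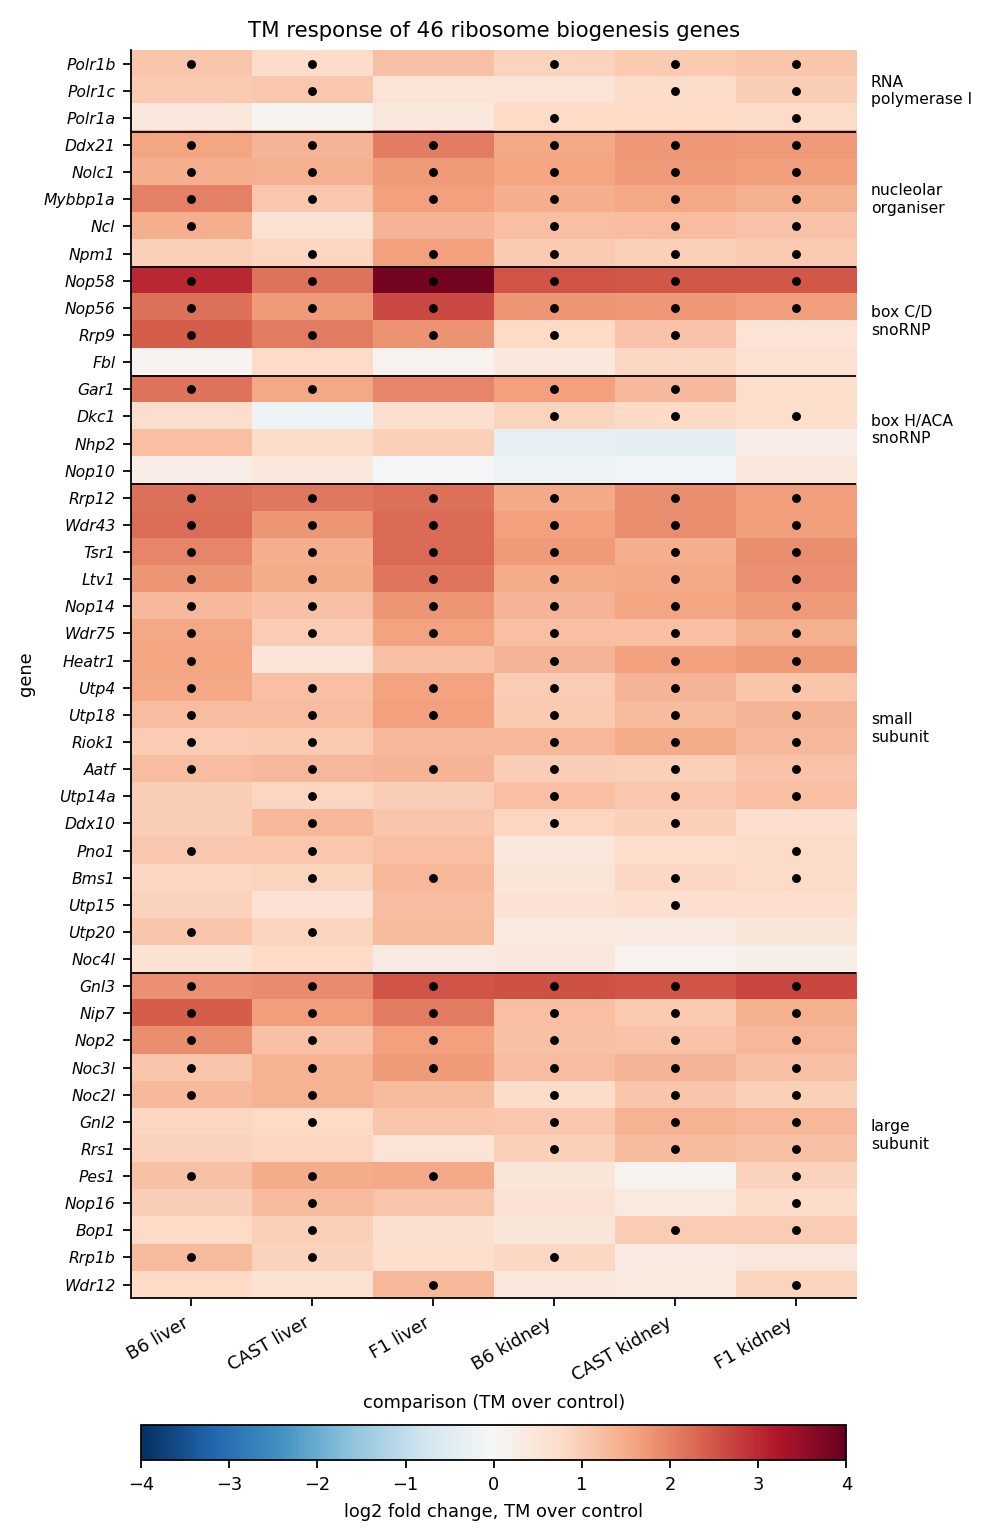
Log2 fold change of TM over control (colour) for the 46 genes (rows, grouped by step) in the 6 comparisons (columns), with a dot where the gene was called higher. Nop58 has the largest value of its step in every column and Gnl3 that of its step in every column but B6 liver, where Nip7 and Nop2 exceed it, and Nop10, Nhp2, Fbl and Noc4l carry no dot.

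Of the 46 genes, 18 were called higher in all 6 comparisons and 4 in none. The 18 were Nop58 and Nop56 of the box C/D snoRNP, Ddx21, Nolc1 and Mybbp1a of the nucleolus, Rrp12, Wdr43, Tsr1, Ltv1, Nop14, Wdr75, Utp4, Utp18 and Aatf of the small subunit, and Gnl3, Nip7, Nop2 and Noc3l of the large subunit. Those called in none were Fbl, Nop10, Nhp2 and Noc4l. In all 6 comparisons and in every fit that left out 1 library, 5 genes were called: Gnl3, Nop56, Nop58, Tsr1 and Wdr43. By the annotation (GENCODE vM21) these 5, with Ncl and Dkc1, are also the 7 of the 46 that are tagged as hosts of small RNAs, and snoRNA genes lie inside exon stretches of Gnl3, Ncl, Nop56 and Nop58, so reads from host and snoRNA could be shared there.

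RNA polymerase I makes the precursor of ribosomal RNA. Its 3 genes had 10 calls in 18 pairs of gene and comparison, the most for Polr1b, the second largest subunit. Polr1b normalized counts in liver stood at 582 and 534 in B6 TM mice against 267, 240.1 and 265 in B6 controls, 377, 360.2 and 458 in CAST TM mice against 221 and 253 in CAST controls, and 446 and 292 in F1 TM mice against 173, 136 and 179 in F1 controls. Polr1b normalized counts in kidney stood at 632, 518 and 509 in B6 TM mice against 305, 283 and 296 in B6 controls, 539, 634 and 731 in CAST TM mice against 226, 315 and 399 in CAST controls, and 433, 429.6 and 379 in F1 TM mice against 143, 219 and 215 in F1 controls. Every TM library was above every control library in each comparison. Polr1b gave log2 fold changes of 1.11, 0.74 and 1.16 in B6, CAST and F1 liver and of 0.90, 1.04 and 1.12 in B6, CAST and F1 kidney (SE 0.13 to 0.40, adjusted p 7.4e-04 to 0.093). It was called in every comparison but F1 liver. The calls in B6 and CAST liver were each lost in 4 of 5 fits without 1 library, that in CAST kidney in 3 of 6 and that in F1 kidney without TM 2 (adjusted p 0.053 to 0.18). Polr1a, the largest, catalytic subunit, had the smallest mean change of the 3. Polr1a normalized counts in liver stood at 402 and 397 in B6 TM mice against 311, 298 and 292 in B6 controls, 337, 281 and 283 in CAST TM mice against 270.4 and 288 in CAST controls, and 413 and 272 in F1 TM mice against 229, 260.2 and 249.7 in F1 controls. Polr1a normalized counts in kidney stood at 777, 741 and 723 in B6 TM mice against 462, 423 and 403 in B6 controls, 551, 807 and 831 in CAST TM mice against 294, 475 and 516 in CAST controls, and 446, 557 and 522 in F1 TM mice against 237, 307 and 369 in F1 controls. The groups overlapped in CAST liver alone, and within each genotype they lay further apart in kidney than in liver. The liver minus kidney difference averaged over genotypes did not pass in limma (-0.46 ± 0.18 SE, adjusted p = 0.080). Polr1a gave log2 fold changes of 0.41, 0.10 and 0.44 in B6, CAST and F1 liver and of 0.80, 0.78 and 0.76 in B6, CAST and F1 kidney (SE 0.11 to 0.40, adjusted p 6.7e-04 to 0.79). It was called in B6 and F1 kidney, in F1 not without control 2, TM 1, TM 2 or TM 3 (adjusted p 0.092 to 0.18). In CAST kidney it was called with the replicate number as a block (adjusted p = 7.4e-05) and by DESeq2 (adjusted p = 0.041). Same-numbered libraries come from different mice, and the pairing was read from these same data. The block raised calls over all genes to 4692, against 2916, in CAST kidney, and to 4723, against 3887, in B6 kidney. The same limit holds for block results of the genes below. Polr1c, which RNA polymerase III shares, was called in CAST liver, CAST kidney and F1 kidney, with log2 fold changes of 0.52 to 1.08 over the 6 comparisons. Its call was lost without CAST liver control 2 and in 5 of 6 fits without 1 CAST kidney library (adjusted p 0.067 to 0.15).

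Organisers and chaperones of the nucleolus were called in 27 of 30 pairs. Ddx21, an RNA helicase of the nucleolus, had the largest mean change of the 5. Ddx21 normalized counts in liver stood at 1160 and 999 in B6 TM mice against 399, 281 and 422 in B6 controls, 941, 704 and 913 in CAST TM mice against 314 and 342 in CAST controls, and 1269 and 924 in F1 TM mice against 358, 161 and 318 in F1 controls. Ddx21 normalized counts in kidney stood at 2411, 1778 and 1539 in B6 TM mice against 799.9, 599.7 and 562 in B6 controls, 1574, 1783 and 1964 in CAST TM mice against 391, 525 and 710.0 in CAST controls, and 1347, 1316 and 1231 in F1 TM mice against 283, 470.0 and 472 in F1 controls. No TM library overlapped a control library. Ddx21 gave log2 fold changes of 1.57, 1.36 and 2.03 in B6, CAST and F1 liver and of 1.54, 1.75 and 1.70 in B6, CAST and F1 kidney (SE 0.19 to 0.43, adjusted p 3.1e-04 to 0.0071). Among the fits without 1 library, a call was lost only without F1 liver TM 1 (adjusted p = 0.12). Npm1, nucleophosmin, a histone chaperone of the nucleolus, had the smallest. Npm1 normalized counts in liver stood at 404 and 474 in B6 TM mice against 251, 131 and 344 in B6 controls, 302, 260.4 and 332 in CAST TM mice against 168 and 159 in CAST controls, and 2379 and 2501 in F1 TM mice against 1020, 564 and 836 in F1 controls. Npm1 normalized counts in kidney stood at 1008, 793 and 875 in B6 TM mice against 466, 364 and 462 in B6 controls, 739, 559 and 647 in CAST TM mice against 382, 287 and 326 in CAST controls, and 3398, 2234 and 2830 in F1 TM mice against 1316, 1449 and 1291 in F1 controls. The groups did not overlap in any comparison. Npm1 gave log2 fold changes of 0.96, 0.86 and 1.64 in B6, CAST and F1 liver and of 1.05, 0.96 and 1.04 in B6, CAST and F1 kidney (SE 0.14 to 0.43, adjusted p 5.9e-04 to 0.17). It was called in every comparison but B6 liver. The call was lost in 4 of 5 fits without 1 library in CAST liver, in 4 of 5 in F1 liver and in 3 of 6 in F1 kidney (adjusted p 0.054 to 0.11). Near-identical processed pseudogenes of Npm1 exist, so its counts are uncertain. Nolc1, which binds both kinds of snoRNP, Mybbp1a, a nucleolar cofactor, and Ncl, nucleolin, had mean log2 fold changes over the 6 comparisons of 1.59, 1.53 and 1.16. Without 1 library, the Nolc1 call was lost in 1 of 5 fits in B6 liver, 1 of 5 in CAST liver and 2 of 5 in F1 liver. That of Mybbp1a was lost in 3 of 5 in F1 liver. Ncl was not called in CAST liver (log2 0.61 ± 0.26 SE, adjusted p = 0.12) or F1 liver (log2 1.36 ± 0.44 SE, adjusted p = 0.066). The Ncl call was lost without B6 liver control 1 or TM 1 and without any 1 of the F1 kidney TM libraries (adjusted p 0.058 to 0.097).

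The box C/D snoRNP held both the gene that changed most and a gene that was not called. Nop58 and Nop56 are paired core proteins of the particle. Nop58 normalized counts in liver stood at 1368 and 1596 in B6 TM mice against 200.4, 137 and 217 in B6 controls, 1164, 833 and 1100 in CAST TM mice against 203 and 252 in CAST controls, and 1499 and 1519 in F1 TM mice against 133, 73.7 and 120.4 in F1 controls. Nop58 normalized counts in kidney stood at 2120, 1559 and 1570 in B6 TM mice against 293, 277 and 339.7 in B6 controls, 2105, 1691 and 1755 in CAST TM mice against 334, 311 and 334 in CAST controls, and 1441, 1129 and 1222 in F1 TM mice against 213, 207 and 249 in F1 controls. TM and control libraries were far apart in all 6 comparisons. Nop58 gave log2 fold changes of 3.02, 2.17 and 3.82 in B6, CAST and F1 liver and of 2.52, 2.49 and 2.49 in B6, CAST and F1 kidney (SE 0.15 to 0.41, adjusted p 3.4e-06 to 2.8e-04). Among the 46 genes it ranked first in each liver comparison and second in each kidney comparison. Nop56 ranked between 2 and 9, with log2 fold changes of 1.68 to 2.63, and has near-identical pseudogenes. Rrp9, a protein of the U3 snoRNP, was called in all but F1 kidney and is described with the tissue comparison. Fbl, fibrillarin, is the methyltransferase of the same particle. Fbl normalized counts in liver stood at 28.4 and 46.7 in B6 TM mice against 26.0, 53.2 and 28.4 in B6 controls, 29.4, 44.3 and 39.1 in CAST TM mice against 18.2 and 25.4 in CAST controls, and 187 and 129 in F1 TM mice against 157, 159 and 114 in F1 controls. Fbl normalized counts in kidney stood at 82.9, 67.3 and 54.6 in B6 TM mice against 70.8, 47.7 and 35.9 in B6 controls, 51.4, 60.5 and 66.2 in CAST TM mice against 25, 32.3 and 42.3 in CAST controls, and 255, 191 and 189 in F1 TM mice against 198, 116 and 111 in F1 controls. Only in CAST liver and CAST kidney did the TM libraries all lie above the controls. Fbl gave log2 fold changes of 0.09, 0.76 and 0.13 in B6, CAST and F1 liver and of 0.43, 0.84 and 0.61 in B6, CAST and F1 kidney (SE 0.26 to 0.45, adjusted p 0.064 to 0.97). It was not called, but passed in CAST kidney with the replicate number as a block (adjusted p = 0.0074) or without control 3 (adjusted p = 0.047), and in F1 kidney without control 1, the library that stood apart (adjusted p = 0.0059). A processed pseudogene and a transcript of Tulp4 are near-identical to Fbl, so its counts are uncertain.

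**Figure D2:**
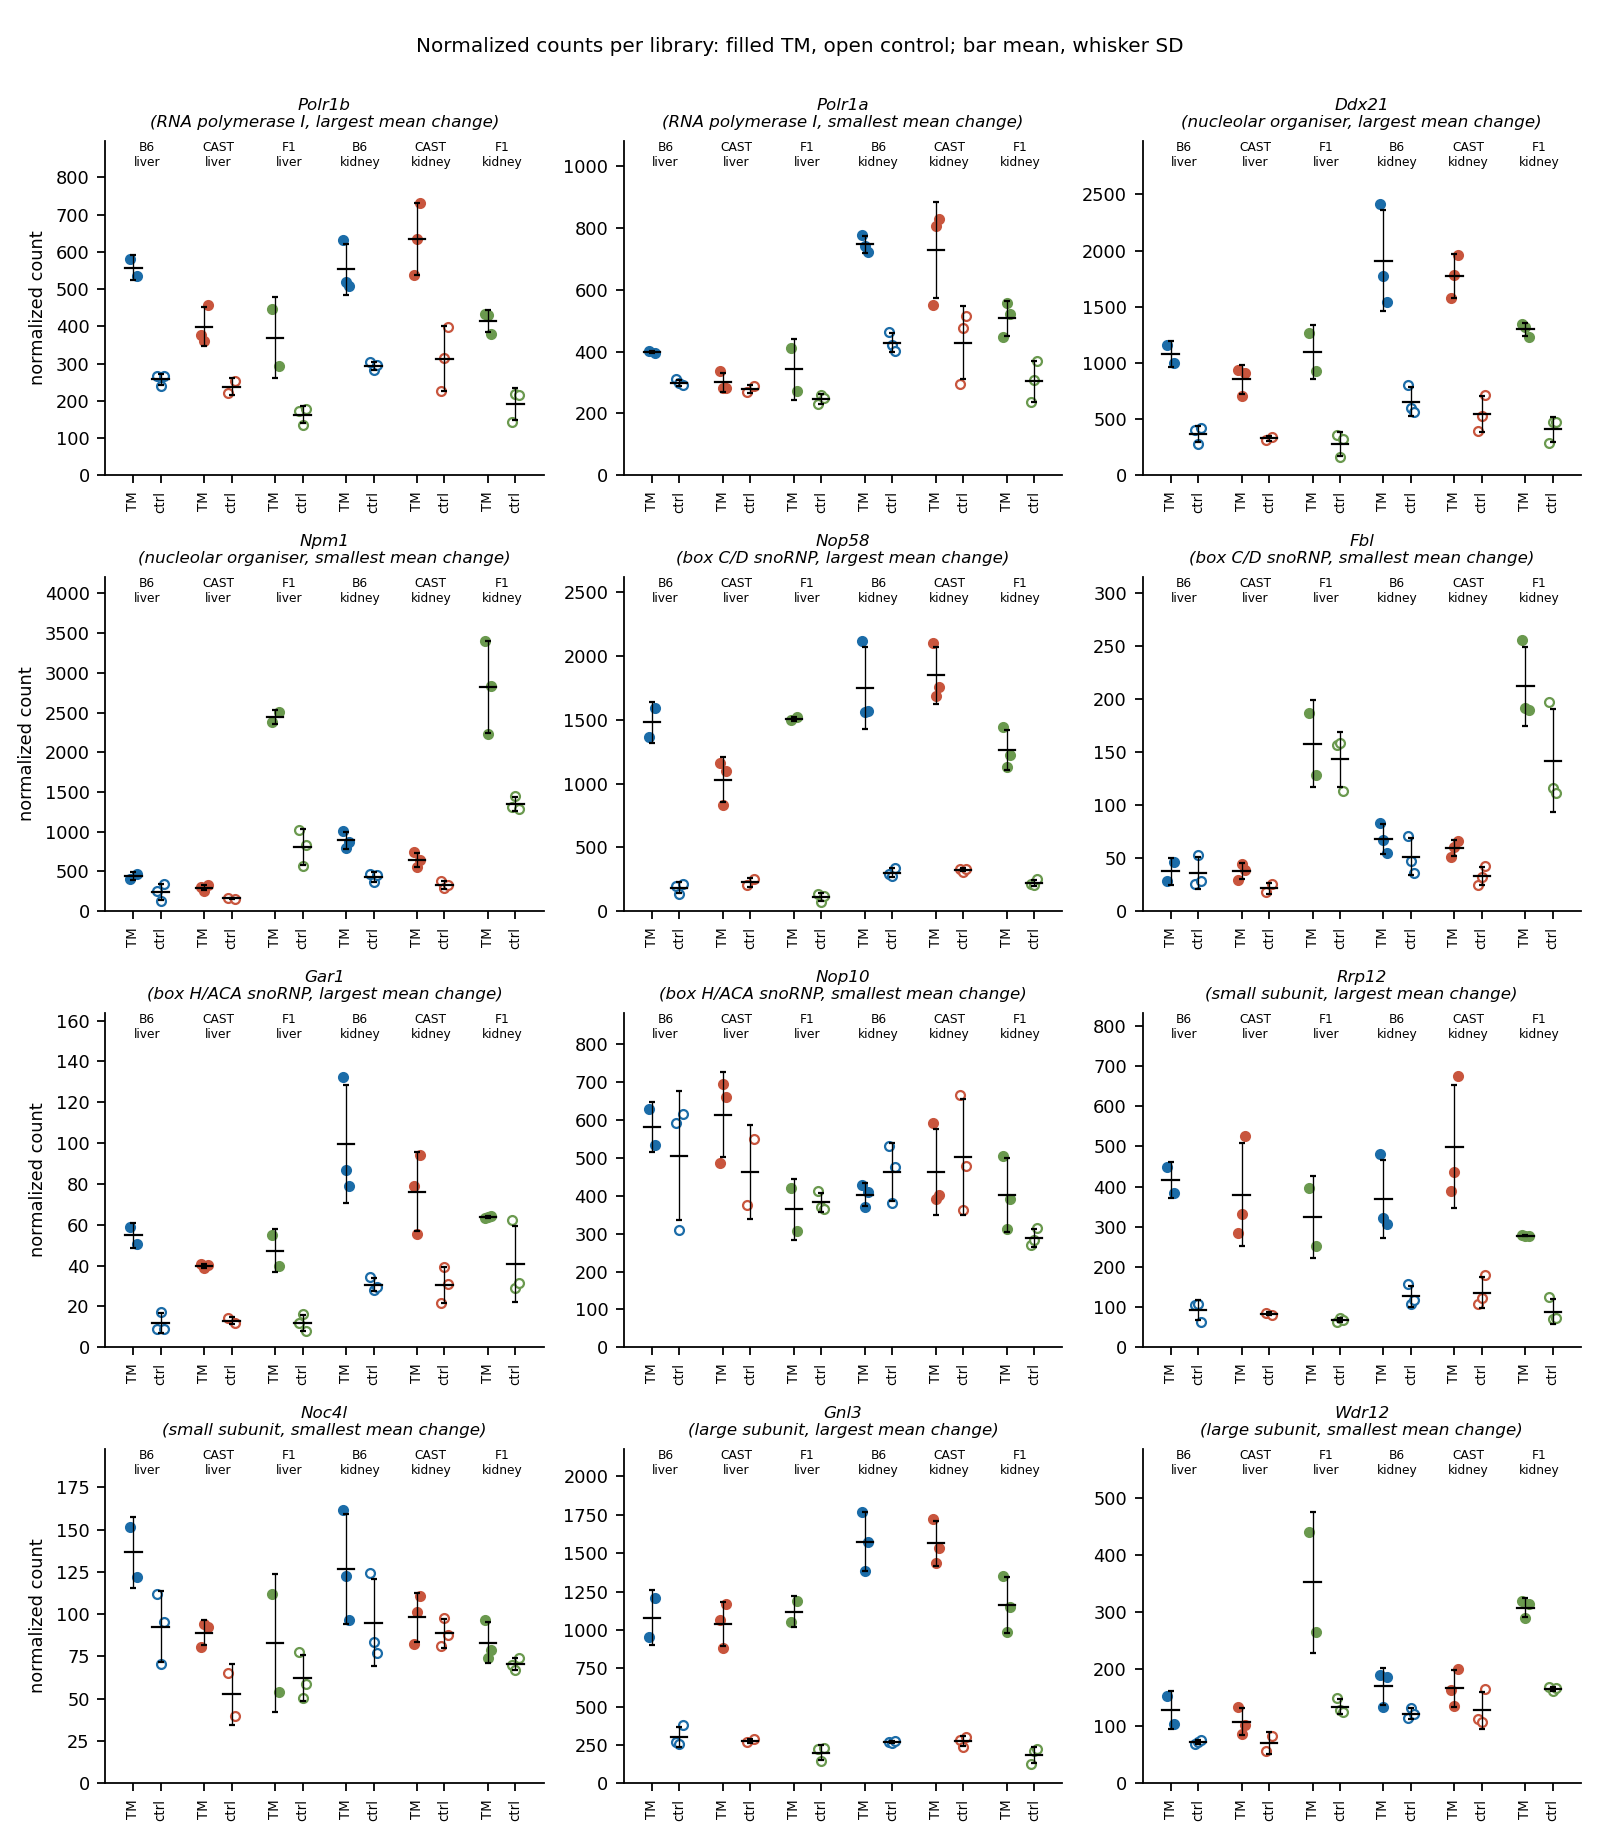
Normalized counts (y axis, from 0) in each library for the gene with the largest and the gene with the smallest mean change of each step, with TM libraries filled and left of the open control libraries, bars at the mean and whiskers of 1 SD (n = 2 or 3). In Nop58 and Gnl3 no control library reaches 400 and no TM library is below 800, while the groups overlap in Nop10.

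Core proteins of the box H/ACA snoRNP had 7 calls in 24 pairs, the fewest for their number of the 6 steps. Gar1 had the largest mean change. Gar1 normalized counts in liver stood at 59.1 and 50.6 in B6 TM mice against 9.02, 17.4 and 9.15 in B6 controls, 40.9, 38.8 and 40.1 in CAST TM mice against 14.4 and 11.8 in CAST controls, and 54.8 and 39.8 in F1 TM mice against 11.7, 16.1 and 7.83 in F1 controls. Gar1 normalized counts in kidney stood at 133, 87.0 and 78.8 in B6 TM mice against 34.3, 28.1 and 29.7 in B6 controls, 78.8, 55.5 and 94.3 in CAST TM mice against 21.4, 39.3 and 31.0 in CAST controls, and 63.4, 64.0 and 64.4 in F1 TM mice against 62.4, 29.0 and 31.3 in F1 controls. The TM libraries lay above the controls throughout, in F1 kidney by a narrow margin over control 1, a library that stood apart. Gar1 gave log2 fold changes of 2.18, 1.54 and 1.94 in B6, CAST and F1 liver and of 1.63, 1.30 and 0.72 in B6, CAST and F1 kidney (SE 0.24 to 0.65, adjusted p 0.0011 to 0.18). It was called in B6 and CAST liver and in B6 and CAST kidney. The call was lost without B6 liver control 3 or TM 1, without CAST liver control 3, and without CAST kidney control 3, TM 1 or TM 3 (adjusted p 0.052 to 0.16). Nop10, a small protein of the same core, had the smallest mean change of all 46 genes. Nop10 normalized counts in liver stood at 629 and 535 in B6 TM mice against 593, 309.6 and 617 in B6 controls, 485, 695 and 661 in CAST TM mice against 375 and 550.4 in CAST controls, and 421 and 307 in F1 TM mice against 412, 371 and 366 in F1 controls. Nop10 normalized counts in kidney stood at 428, 369 and 409 in B6 TM mice against 532, 382 and 476 in B6 controls, 594, 393 and 401 in CAST TM mice against 667, 364 and 479 in CAST controls, and 505, 312 and 390.5 in F1 TM mice against 270.5, 282 and 315 in F1 controls. TM and control libraries overlapped in all 6 comparisons. Nop10 gave log2 fold changes of 0.26, 0.42 and -0.09 in B6, CAST and F1 liver and of -0.19, -0.10 and 0.45 in B6, CAST and F1 kidney (SE 0.14 to 0.39, adjusted p 0.22 to 0.96). Dkc1, dyskerin, the pseudouridine synthase, was called in the 3 kidney comparisons (log2 0.72 to 0.89) and in none of the livers. The Dkc1 call was lost in 4 of 6 fits without 1 CAST kidney library and in 5 of 6 in F1 kidney (adjusted p 0.073 to 0.14). Nhp2, the fourth core protein, was called nowhere, with log2 fold changes of 1.20, 0.74 and 0.94 in B6, CAST and F1 liver and -0.32, -0.39 and 0.27 in kidney.

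Factors of the small subunit were called in 80 of 108 pairs, 13, 15 and 10 of 18 in B6, CAST and F1 liver and 13, 15 and 14 in kidney. Rrp12, known from yeast as a factor of ribosome export, led them. Rrp12 normalized counts in liver stood at 448 and 384 in B6 TM mice against 106, 106 and 64.0 in B6 controls, 284, 331 and 526 in CAST TM mice against 86.3 and 80.8 in CAST controls, and 396 and 252 in F1 TM mice against 62.5, 73.7 and 67.6 in F1 controls. Rrp12 normalized counts in kidney stood at 482, 322 and 306 in B6 TM mice against 157, 107 and 118 in B6 controls, 388, 435 and 675 in CAST TM mice against 107, 121 and 179.6 in CAST controls, and 279, 277 and 276 in F1 TM mice against 125, 69.5 and 72.0 in F1 controls. No TM library overlapped a control library. Rrp12 gave log2 fold changes of 2.2, 2.12 and 2.2 in B6, CAST and F1 liver and of 1.52, 1.86 and 1.69 in B6, CAST and F1 kidney (SE 0.21 to 0.42, adjusted p 6.5e-04 to 0.0024). Among the fits without 1 library, a call was lost only in F1 liver, without TM 1 (adjusted p = 0.083). Noc4l, whose yeast counterpart works with Nop14, had the smallest mean change. Noc4l normalized counts in liver stood at 151 and 122 in B6 TM mice against 112, 70.6 and 95.1 in B6 controls, 80.6, 94.2 and 92.6 in CAST TM mice against 65.2 and 40.0 in CAST controls, and 112 and 54.2 in F1 TM mice against 77.5, 50.7 and 58.7 in F1 controls. Noc4l normalized counts in kidney stood at 161, 123 and 96.7 in B6 TM mice against 124, 83.3 and 77.3 in B6 controls, 82.4, 101 and 111 in CAST TM mice against 81.0, 97.9 and 87.5 in CAST controls, and 96.8, 73.8 and 78.9 in F1 TM mice against 70.2, 67.3 and 74.3 in F1 controls. The groups were apart in B6 and CAST liver and overlapped in the other 4 comparisons. Noc4l gave log2 fold changes of 0.57, 0.79 and 0.34 in B6, CAST and F1 liver and of 0.42, 0.14 and 0.23 in B6, CAST and F1 kidney (SE 0.20 to 0.48, adjusted p 0.088 to 0.86). In the UtpA complex, which binds the precursor first, Wdr43, Wdr75 and Utp4 were called in all 6 comparisons, Heatr1 in 4 and Utp15 in 1. Their mean log2 fold changes were 1.91 for Wdr43, 1.33 for Wdr75, 1.32 for Heatr1, 1.31 for Utp4 and 0.77 for Utp15. Of the factors that act late, on the small subunit in the cytoplasm, Tsr1 and Ltv1 were called in all 6 (mean log2 1.78 and 1.70), the kinase gene Riok1 in 5 (1.25) and Pno1 in 3 (0.88). Exons of Tsr1 overlap those of Srr on the other strand, so its counts depend on strand being used. Nop14, Utp18 and Aatf, called in all 6, averaged 1.48, 1.29 and 1.16. Utp14a, the helicase gene Ddx10 and the GTPase gene Bms1 were called in 4, 3 and 4. Without 1 library, the Aatf call was lost in 3 of 5 fits in B6 liver, 4 of 5 in F1 liver and 3 of 6 in F1 kidney. Those of Nop14 and Utp18 were lost in 3 of 5 in B6 liver and 2 of 5 in F1 liver, and Nop14 in 1 of 5 in CAST liver. In F1 liver those of Wdr75 and Utp4 were lost in 3 of 5 and Ltv1 in 1 of 5, and in CAST liver Wdr75 in 3 of 5. The Pno1 call was lost in 4 of 5 fits without 1 B6 liver library and in 5 of 6 without 1 F1 kidney library (adjusted p 0.071 to 0.21), and Pno1 passed in CAST kidney too with the replicate number as a block (adjusted p = 3.7e-04). Among the fits without 1 library, each of the 4 Bms1 calls was lost in 3 or 4 fits (adjusted p 0.058 to 0.29), the Riok1 call in 4 of 5 in B6 liver and 2 of 5 in CAST liver (0.059 to 0.28), the Utp14a call in 4 of 5 in CAST liver (0.064 to 0.15) and the Utp15 call in 4 of 6 in CAST kidney (0.081 to 0.10).

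Large subunit factors were called in 50 of 72 pairs, 7, 10 and 6 of 12 in B6, CAST and F1 liver and 8, 8 and 11 in kidney. Gnl3, nucleostemin, a GTPase of the nucleolus, had the largest mean change. Gnl3 normalized counts in liver stood at 952 and 1207 in B6 TM mice against 271, 259 and 378 in B6 controls, 1065, 885 and 1169 in CAST TM mice against 267 and 287 in CAST controls, and 1050 and 1189 in F1 TM mice against 224, 147 and 229 in F1 controls. Gnl3 normalized counts in kidney stood at 1766, 1383 and 1572 in B6 TM mice against 271, 265 and 273 in B6 controls, 1726, 1437 and 1533 in CAST TM mice against 283, 236 and 301 in CAST controls, and 1354, 989 and 1150 in F1 TM mice against 127, 209 and 225 in F1 controls. Every TM library had more than any control library, by a wide margin. Gnl3 gave log2 fold changes of 1.84, 1.90 and 2.5 in B6, CAST and F1 liver and of 2.53, 2.52 and 2.66 in B6, CAST and F1 kidney (SE 0.12 to 0.40, adjusted p 1.0e-06 to 0.0034). It ranked first of the 46 in each kidney comparison and 11, 4 and 3 in B6, CAST and F1 liver. Wdr12, with Pes1 and Bop1 a member of the PeBoW complex, had the smallest. Wdr12 normalized counts in liver stood at 153 and 104 in B6 TM mice against 69.1, 72.8 and 75.9 in B6 controls, 134, 86.8 and 103 in CAST TM mice against 56.6 and 83.6 in CAST controls, and 440.1 and 265 in F1 TM mice against 149, 129 and 125 in F1 controls. Wdr12 normalized counts in kidney stood at 190.2, 133 and 187 in B6 TM mice against 114, 132 and 121 in B6 controls, 164, 136 and 201 in CAST TM mice against 112, 107 and 166 in CAST controls, and 320.4, 289.9 and 315 in F1 TM mice against 169, 161 and 167 in F1 controls. In CAST kidney the groups overlapped and in the other 5 comparisons they did not. Wdr12 gave log2 fold changes of 0.79, 0.62 and 1.34 in B6, CAST and F1 liver and of 0.46, 0.39 and 0.89 in B6, CAST and F1 kidney (SE 0.17 to 0.41, adjusted p 0.009 to 0.33). It was called in F1 liver and F1 kidney only. The F1 liver call was lost without control 1, control 3 or TM 1 and the F1 kidney call without TM 3 (adjusted p 0.065 to 0.32). Transcripts of other genes match Wdr12 closely, so its counts are uncertain. Bop1 was called in 3 comparisons with log2 fold changes of 0.48 to 1.03 over all 6. Nop2, an RNA methyltransferase, and Noc3l were called in all 6 (mean log2 1.39 and 1.33) and Noc2l in 5 (1.13). The GTPase gene Gnl2 was called in 4 (1.10), Rrs1, which helps the 5S particle join, in 3 (0.96), Rrp1b in 3 (0.75) and Nop16 in 2 (0.85). Without 1 library, the Noc3l call was lost in 4 of 5 fits in B6 liver, 2 of 5 in CAST liver and 3 of 5 in F1 liver. That of Nop2 was lost in 1 of 5 in CAST liver, 3 of 5 in F1 liver and 2 of 6 in CAST kidney. The Nop16 call in F1 kidney was lost in 5 of 6 fits without 1 library (adjusted p 0.066 to 0.13), and Nop16 passed in B6 kidney with the replicate number as a block (adjusted p = 0.0019). In CAST liver the calls of Gnl2, Rrp1b and Bop1 were lost in 4, 4 and 3 of 5 such fits (adjusted p 0.055 to 0.18), and in B6 liver those of Rrp1b and Noc2l in 3 and 2 of 5 (0.062 to 0.23). Noc2l lost its call in 3 of 6 in F1 kidney and 1 of 6 in CAST kidney (0.051 to 0.065), and Bop1 in 1 of 6 in F1 kidney (0.052).

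Across the 46 genes the order of the changes was alike between genotypes of a tissue. Spearman's rho over the 46 was 0.75 to 0.91 for the 6 pairs of comparisons within a tissue. Between liver and kidney of the same genotype it was 0.55 to 0.71 (3 pairs), and between liver and kidney of different genotypes 0.48 to 0.77 (6 pairs). These pairs share no libraries, but liver and kidney probably come from the same mice, and the genes are not independent replicates.

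Whether the response differed between tissues was tested as the liver minus kidney difference in log2 fold change. Averaged over the 3 genotypes, it passed at an adjusted p below 0.05 for 5 of the 46 genes, all with the larger response in liver. Of all 21421 genes tested, 14.4% passed, 4.29% with the larger response in liver and 10.1% with the smaller. The 5 were Rrp9 (1.28 ± 0.25 SE, adjusted p = 6.0e-04), Pes1 (0.86 ± 0.21, adjusted p = 0.0049), Utp20 (0.67 ± 0.19, adjusted p = 0.017), Nip7 (0.83 ± 0.24, adjusted p = 0.019) and Nhp2 (1.10 ± 0.33, adjusted p = 0.023). Gnl3 was the gene with the largest difference the other way (-0.49 ± 0.18, adjusted p = 0.070) and passed without the libraries that stood apart (-0.59, adjusted p = 0.0049) and with TMM scaling (-0.58, adjusted p = 0.024). It also passed without B6 liver control 2, F1 liver control 2 or F1 kidney control 3 (adjusted p 0.019 to 0.049). The test takes liver and kidney libraries as independent, and counts come from 6 tables that were normalized separately.

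Rrp9 encodes a protein of the U3 snoRNP, which is needed for cuts that free the small subunit RNA. Rrp9 normalized counts in liver stood at 811 and 337 in B6 TM mice against 129, 66.3 and 105 in B6 controls, 339, 482 and 397 in CAST TM mice against 83.4 and 108 in CAST controls, and 410.2 and 242 in F1 TM mice against 83.4, 101 and 83.2 in F1 controls. Rrp9 normalized counts in kidney stood at 252, 166 and 181 in B6 TM mice against 121, 114 and 103 in B6 controls, 228, 208 and 168 in CAST TM mice against 107, 85.6 and 81.8 in CAST controls, and 176, 125 and 130.4 in F1 TM mice against 140.4, 74.9 and 86.8 in F1 controls. In liver the groups were far apart, in B6 and CAST kidney they were apart by less, and in F1 kidney they overlapped. Rrp9 gave log2 fold changes of 2.42, 2.07 and 1.81 in B6, CAST and F1 liver and of 0.80, 1.13 and 0.54 in B6, CAST and F1 kidney (SE 0.18 to 0.42, adjusted p 4.2e-04 to 0.24). Rrp9 kept its tissue difference in each of the 33 fits that left out 1 library, at 1.07 to 1.49. Its call in F1 liver was lost without control 1, control 3 or TM 1 (adjusted p 0.051 to 0.15).

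Pes1 encodes pescadillo, of the PeBoW complex of the large subunit. Pes1 normalized counts in liver stood at 293 and 240.4 in B6 TM mice against 115, 106 and 135 in B6 controls, 159.5, 149.6 and 183 in CAST TM mice against 44.1 and 76.3 in CAST controls, and 598 and 333 in F1 TM mice against 198, 111 and 177 in F1 controls. Pes1 normalized counts in kidney stood at 376, 376 and 365 in B6 TM mice against 242, 286 and 272 in B6 controls, 217, 248 and 252 in CAST TM mice against 201, 232 and 211 in CAST controls, and 810.4, 628 and 571 in F1 TM mice against 242, 450.2 and 384 in F1 controls. TM and control libraries overlapped only in CAST kidney. Pes1 gave log2 fold changes of 1.16, 1.48 and 1.5 in B6, CAST and F1 liver and of 0.48, 0.15 and 0.93 in B6, CAST and F1 kidney (SE 0.12 to 0.42, adjusted p 0.0057 to 0.6). In B6 kidney the adjusted p passed but the change was below 1.5-fold. Its tissue difference stayed at 0.72 to 1.00 in the 33 fits. Of the calls, those in B6 liver (without control 1, control 3 or TM 1), F1 liver (without control 1, control 3 or TM 1) and F1 kidney (without control 3 or any 1 TM library) were lost (adjusted p 0.065 to 0.33). Pes1 has near-identical processed pseudogenes, so its counts are uncertain.

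Utp20 encodes a large scaffold protein of the small subunit processome. Utp20 normalized counts in liver stood at 899 and 924 in B6 TM mice against 398, 444 and 432 in B6 controls, 805, 580.0 and 778 in CAST TM mice against 376 and 392 in CAST controls, and 847 and 552 in F1 TM mice against 274, 251 and 337 in F1 controls. Utp20 normalized counts in kidney stood at 1477, 1361 and 1396 in B6 TM mice against 1277, 871 and 1104 in B6 controls, 1145, 1251 and 1594 in CAST TM mice against 798, 967 and 1376 in CAST controls, and 796, 982 and 867 in F1 TM mice against 434, 705 and 804 in F1 controls. Liver groups were apart, and in kidney they overlapped except in B6. Utp20 gave log2 fold changes of 1.10, 0.89 and 1.26 in B6, CAST and F1 liver and of 0.40, 0.37 and 0.49 in B6, CAST and F1 kidney (SE 0.14 to 0.40, adjusted p 0.02 to 0.34). It was called in B6 and CAST liver, each time not in 4 of 5 fits without 1 library (adjusted p 0.054 to 0.13). Under TMM scaling its tissue difference was 0.57 (adjusted p = 0.052).

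Nip7 encodes a factor of large subunit assembly. Nip7 normalized counts in liver stood at 782 and 474 in B6 TM mice against 131, 73.9 and 150.0 in B6 controls, 389, 401 and 354 in CAST TM mice against 117 and 121 in CAST controls, and 405 and 461 in F1 TM mice against 122, 71.4 and 124 in F1 controls. Nip7 normalized counts in kidney stood at 535, 356 and 456 in B6 TM mice against 269, 166 and 156 in B6 controls, 455, 318 and 312 in CAST TM mice against 257, 143 and 137 in CAST controls, and 454, 333 and 407 in F1 TM mice against 148, 158 and 138 in F1 controls. No TM library overlapped a control library. Nip7 gave log2 fold changes of 2.42, 1.67 and 2.06 in B6, CAST and F1 liver and of 1.21, 1.05 and 1.41 in B6, CAST and F1 kidney (SE 0.19 to 0.41, adjusted p 6.4e-04 to 0.033). Its tissue difference was 0.71 without B6 liver TM 1 (adjusted p = 0.056) and 0.69 with the replicate number as a block (adjusted p = 0.075). The CAST kidney call was lost in 5 of 6 fits without 1 library and the F1 liver call without TM 1 (adjusted p 0.063 to 0.12).

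Nhp2, of the box H/ACA snoRNP, had negative log2 fold changes in B6 and CAST kidney and positive ones elsewhere. Nhp2 normalized counts in liver stood at 546 and 223 in B6 TM mice against 200.4, 91.2 and 191 in B6 controls, 149, 259 and 164 in CAST TM mice against 108 and 113 in CAST controls, and 337 and 168 in F1 TM mice against 180.1, 59.9 and 174 in F1 controls. Nhp2 normalized counts in kidney stood at 253, 185 and 245 in B6 TM mice against 265, 259 and 326 in B6 controls, 227, 181 and 186 in CAST TM mice against 412, 216 and 195 in CAST controls, and 395, 299.7 and 336 in F1 TM mice against 395, 205 and 278 in F1 controls. The TM libraries lay above the controls in B6 and CAST liver and below them in B6 kidney, and the groups overlapped elsewhere. No single comparison was called. Without the libraries that stood apart, the log2 fold change of Nhp2 was 1.48 in B6 liver and 0.92 in F1 liver. Each of these fits kept only TM 1, the higher of the 2 TM libraries, in its TM group. In B6 liver the change was 1.84 without TM 3, again with TM 1 alone. Nhp2 passed there without a filter on low counts (adjusted p = 0.045). The tissue difference was 0.89 without B6 liver TM 1 (adjusted p = 0.073) and 0.94 without F1 liver TM 1 (adjusted p = 0.060).

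**Figure D3:**
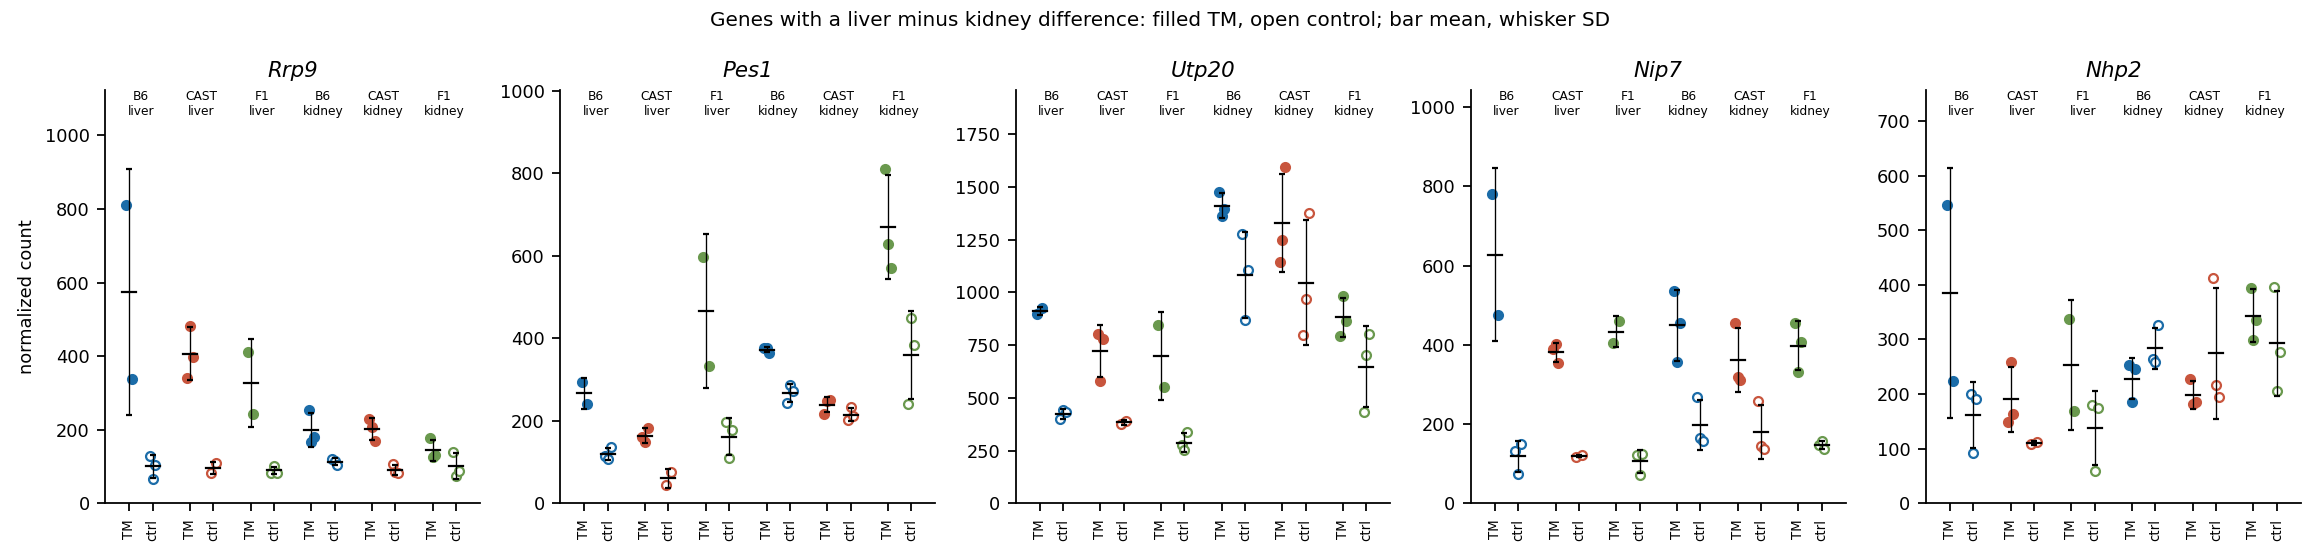
Normalized counts (y axis, from 0) in each library for the 5 genes whose TM response differed between liver and kidney on average over genotypes, with TM libraries filled and left of the open controls, bars at the mean and whiskers of 1 SD (n = 2 or 3). The gap between TM and control libraries is wide in liver for Rrp9 and Nip7, and for Nhp2 it is turned round in B6 kidney.

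Within single genotypes the tissue test found little. It passed for none of the 46 genes in B6, where 3.75% of all genes passed (0.919% with the larger response in liver and 2.83% with the smaller). In CAST it passed for Pes1 alone, against 2.66% of all genes (1.03% and 1.63%), and in F1 for none, against 1.23% (0.263% and 0.967%). At an unadjusted p below 0.05, limma gave 7, 7 and 3 of the 46 genes in B6, CAST and F1. Of all genes it gave 3534 of 22526, 3136 of 20371 and 2980 of 23993, so the counts of the 46 were not above that background. With edgeR none passed in any genotype. With DESeq2 4, 2 and 3 did, where 1854 of 22526, 1067 of 20371 and 1351 of 23993 of all genes did. Pes1 in CAST (1.33 ± 0.32 SE, adjusted p = 0.047) passed in 1 of 11 fits that left out 1 library, where adjusted p was otherwise 0.060 to 0.14. In B6, the difference without TM 3 of liver was 2.26 for Rrp9 and 2.16 for Nhp2, with TM 1 the only TM library left in liver. More of the 46 passed in B6 without the libraries that stood apart, which also leaves TM 1 alone. In F1, 1 passed without liver control 2, and more passed without the libraries that stood apart. Each of these fits in B6 and F1 passed more of all genes too.

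**Figure D4:**
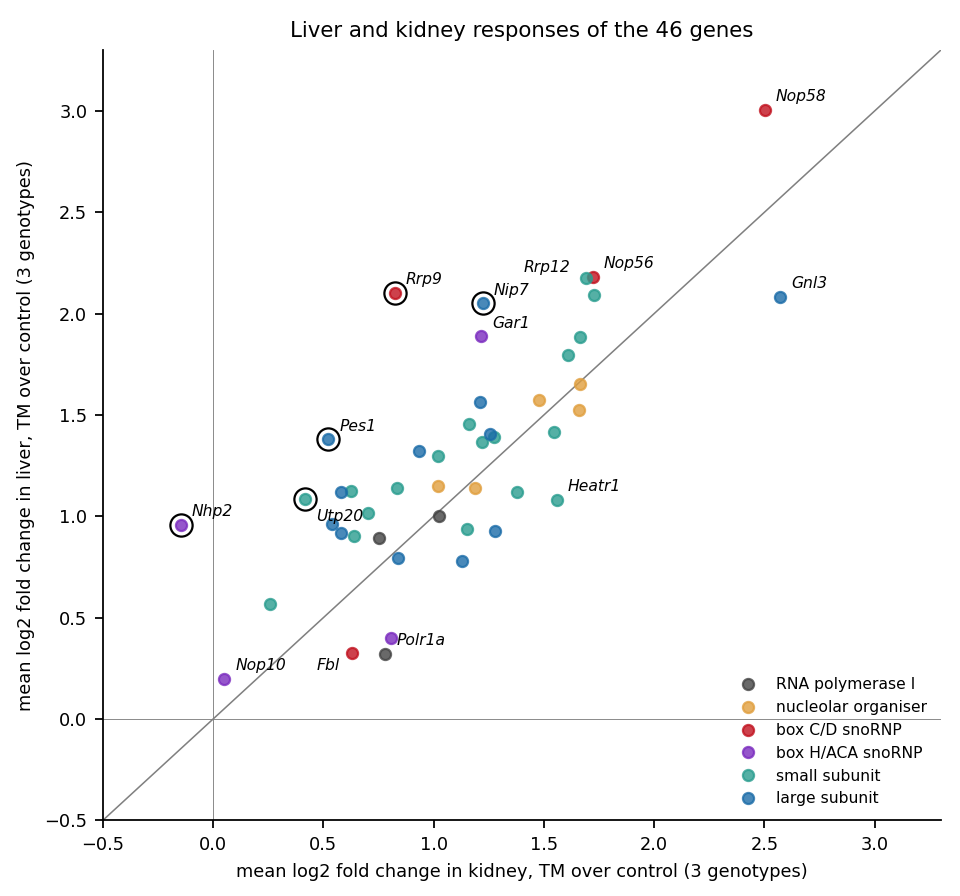
Mean log2 fold change of TM over control in liver (y axis) against kidney (x axis) for the 46 genes, each the mean of 3 genotypes, coloured by step, with the line of equal change and rings around the 5 genes with a tissue difference. Rrp9, Pes1, Utp20, Nip7 and Nhp2 lie above the line and Gnl3 below it.

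Whether genotypes differed in their response was tested with 1 test per gene and tissue. In liver, no gene passed (0 of 20157, with 761 at an unadjusted p below 0.05), and among the 46 genes 2 had an unadjusted p below 0.05. With edgeR none of the 46 passed in liver, and with DESeq2 Nop58 and Heatr1 did. Nop58 had the smallest p of the 46 in limma (CAST minus B6 -0.85 ± 0.43 SE, F1 minus B6 0.80 ± 0.43 SE, adjusted p = 0.82). In kidney, 0.0878% of all genes passed and none of the 46. An unadjusted p below 0.05 was found for 1 of the 46, against 1233 of all 22767 genes. Neither edgeR nor DESeq2 passed any of the 46 in kidney. B6 and CAST reads were aligned with another program than F1 reads, so F1 and aligner cannot be told apart.

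**Figure D5:**
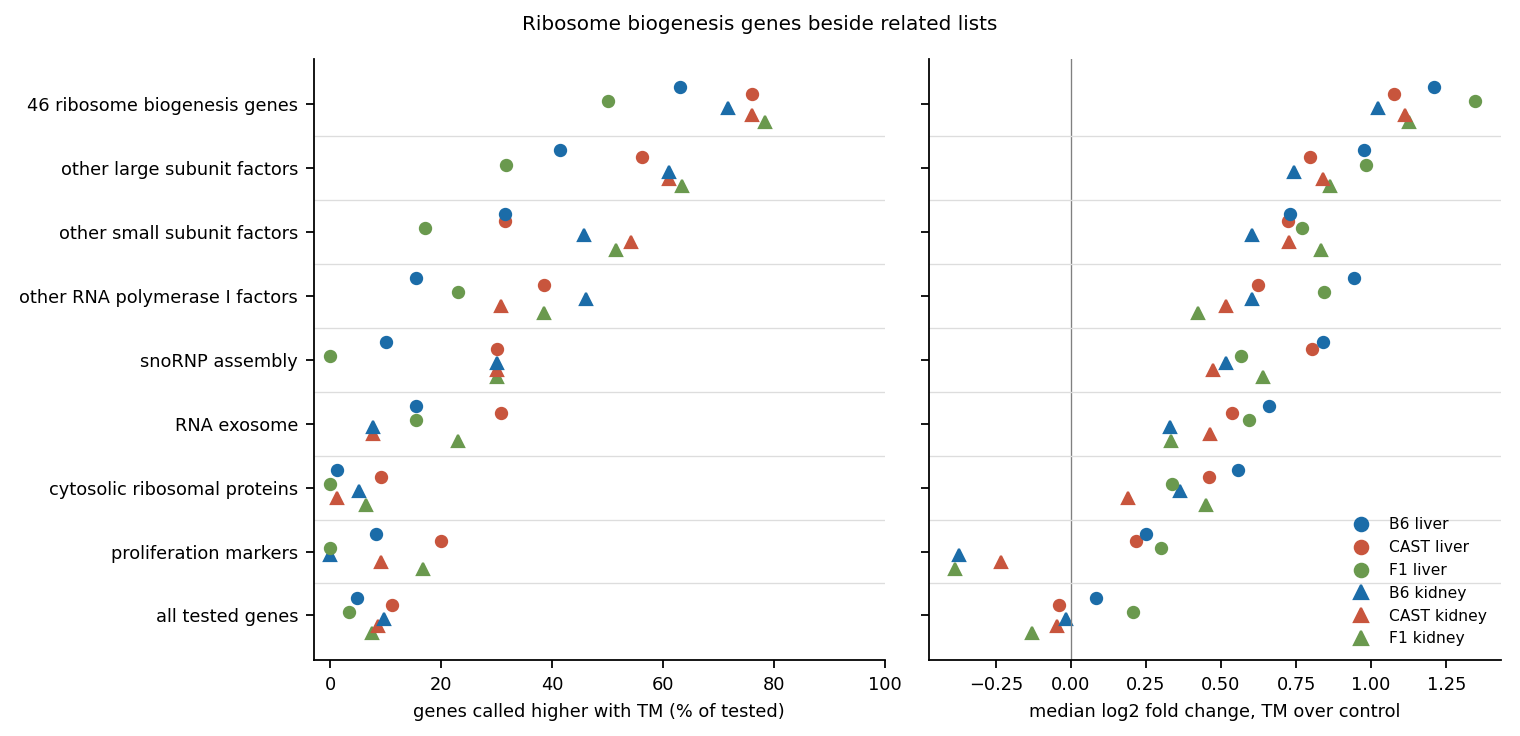
Share of tested genes called higher with TM (left, in %) and median log2 fold change of TM over control (right) for the 46 genes, related lists and all tested genes, with circles for liver, triangles for kidney and a colour per genotype. The 46 genes lie at 50% or more called in every comparison, and the 77 cytosolic ribosomal proteins at 9.09% or less.

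Other factors of the same pathway, set beside the 46, were called higher in part. Of 41 other large subunit factors, 17, 23 and 13 were called higher in B6, CAST and F1 liver and 25, 25 and 26 in kidney. Ppan, whose product helps mature the large subunit, was called in all 6 comparisons (mean log2 2.43). Of 35 other small subunit factors, 11, 11 and 6 were called in liver and 16, 19 and 18 in kidney. Ngdn, another small subunit factor, was called in all 6 (mean log2 2.29). Of 13 other RNA polymerase I factors, 2, 5 and 3 were called in liver and 6, 4 and 5 in kidney. The subunit gene Polr1f was called in 5 comparisons (mean log2 1.49). Of 10 snoRNP assembly factors, 1, 3 and 0 were called in liver and 3, 3 and 3 in kidney. In this list Nufip1 led with a mean log2 of 1.00 and 4 calls, and none of the genes in these 4 lists was called lower. The RNA exosome, which trims ribosomal RNA, had 2, 4 and 2 of 13 tested genes called in liver and 1, 1 and 3 in kidney, and 1 was called lower in B6 kidney. Of all genes, 4.8%, 11.1% and 3.42% were called higher in liver and 9.73%, 8.69% and 7.54% in kidney, and 7.77% lower in B6 kidney. The exosome counts in B6 and CAST kidney were near these shares. Its nuclease gene Dis3 was called in all 6 (mean log2 1.19).

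The share of ribosomal protein genes called was below that of all genes in each comparison, in part by little. Of 77 cytosolic ribosomal protein genes, 1, 7 and 0 were called higher in B6, CAST and F1 liver and 4, 1 and 5 in kidney, and none lower. The calls higher over all genes were 4.8%, 11.1% and 3.42% in liver and 9.73%, 8.69% and 7.54% in kidney, so that 7 of 77 in CAST liver and 5 of 77 in F1 kidney were near that background. The median log2 fold changes of the 77 were 0.56, 0.46 and 0.34 in liver and 0.36, 0.19 and 0.45 in kidney. Positive values were found for 77, 77 and 68 of the 77 in liver and 76, 62 and 77 in kidney. Rpl12 had the largest mean (log2 1.38) and was called in 5 comparisons. Many ribosomal protein genes have near-identical pseudogenes, so their counts are uncertain.

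Of 10 genes of the MYC network, 3, 4 and 2 were called higher in B6, CAST and F1 liver and 5, 4 and 4 in kidney. In B6 and in CAST kidney 1 was called lower, against 7.77% and 4.7% of all genes. Myc normalized counts in liver stood at 376 and 242 in B6 TM mice against 141, 116 and 73.2 in B6 controls, 189, 366 and 395 in CAST TM mice against 36.4 and 29.97 in CAST controls, and 142 and 124 in F1 TM mice against 198, 50.7 and 28.4 in F1 controls. Myc normalized counts in kidney stood at 1391, 1041 and 860.0 in B6 TM mice against 72.9, 52.4 and 32.4 in B6 controls, 808, 1062 and 1302 in CAST TM mice against 29.8, 54.2 and 72.4 in CAST controls, and 578, 629 and 663 in F1 TM mice against 75.4, 43.6 and 34.4 in F1 controls. TM and control libraries overlapped in F1 liver, where control 1 was the highest of the 5, and were apart elsewhere. Myc gave log2 fold changes of 1.5, 3.15 and 1.00 in B6, CAST and F1 liver and of 4.40, 4.38 and 3.66 in B6, CAST and F1 kidney (SE 0.27 to 0.59, adjusted p 5.5e-06 to 0.44). Myc was called in all comparisons but F1 liver. Its antagonist gene Mxd1 was called in all 6 comparisons (mean log2 1.57) and so was its partner gene Max (1.16). Mycn averaged -1.28 over the 5 comparisons in which it was tested and was called in none. No protein or binding of MYC was measured, and its part in the results was not tested.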

How the data were processed

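Liver and kidney RNA of 33 libraries (TruSeq Stranded Total RNA, Ribo-Zero Gold) was analysed. The authors trimmed reads, aligned B6 and CAST reads to the genome of the strain with Bowtie2 2.2.9 and F1 reads to a masked genome with STAR 2.6, used SAMtools 1.12, and removed libraries that did not group with their treatment. For the counting tool and its strand setting the sources used here give nothing. Values as deposited are a signal per gene, which the authors made as read counts divided by DESeq2 1.28.1 size factors in each of 6 tables separately. Dividing by the smallest step of a library gave back whole reads for 100% of values within 0.01.

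Genes averaging 5 or more normalized counts in a table were tested with limma 3.58.1 (trend, R 4.3.3) on log2(value + 1) per table, and all p-values were adjusted by Benjamini-Hochberg over all tested genes. Tissue and genotype differences were interaction terms across tables, passed at an adjusted p below 0.05. The limma fits called 2447, 3673, 1720, 3887, 2916 and 2433 genes in B6, CAST and F1 liver and B6, CAST and F1 kidney. Count tests on the recovered reads were alternatives, and edgeR 4.0.16 called 1908, 3864, 1777, 3942, 2847 and 2515 genes in that order. DESeq2 1.42.0, TMM scaling, centring, other pseudocounts, no filter, no trend, a replicate block and leaving out libraries were the other alternatives, and leaving out the libraries that stood apart was chosen after seeing the data. Recovered reads per library bound precision through counting error only.

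The 46 genes and the other lists were chosen with earlier results of these data known. The text names every one of the 46 genes, gives values per library for the genes with the largest and smallest mean change of each step, and names genes of other lists by mean change. Same-numbered TM and control libraries come from different mice. They deviated together in B6 kidney (correlations 0.33 to 0.55) and CAST kidney (0.39 to 0.67). By the rule set (above 0.1 in each of 3 pairs) this pairs them there, and not in F1 kidney (0.07 to 0.39). Kidney calls, SEs and p-values nonetheless come from fits without this pairing, except where a block is named.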

Additional observations from a re-analysis of the deposited data

Results flagged for a closer look

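The liver minus kidney difference in the log2 fold change of TM over control passed its test for 5 genes averaged over genotypes. Of all genes 14.4% passed there, 4.29% with the larger response in liver, as in these 5. In CAST it passed for 1 gene, where 2.66% of all genes did. With both directions counted, the number that passed is thus not above the share of all genes in either test. With only a larger response in liver counted, it is above the share of all genes, 4.29% averaged and 1.03% in CAST. In CAST this rests on 1 gene, and no excess was tested. These genes are listed because the test found a difference between tissues. Averaged over genotypes, the difference was 1.28 for Rrp9, 1.10 for Nhp2, 0.86 for Pes1, 0.83 for Nip7 and 0.67 for Utp20. In CAST alone it was 1.33 for Pes1, which no longer passed in most fits that left out 1 library. Of the 5, Rrp9, Pes1 and Utp20 passed in each of the 33 fits that left out 1 library.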

How the results depend on the processing

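No gene of the 46 was called lower in any of 96 other fits. Of 9246 values for single genes under the alternatives, 8699 stayed on their side of the threshold, 367 were no longer past it and 180 were newly past it. Among values past the threshold in either fit, 0 reversed in sign. A change of sign in a value past it in neither fit was counted as staying. Without the trend in limma, the genes called higher with TM numbered 0 in B6 liver, 23 in CAST liver, 0 in F1 liver and 22 in F1 kidney. In F1 liver there were 5 without a filter on low counts, and 41 without the libraries that stood apart. With the median of all genes set to 0, the median log2 fold change of the 46 in F1 kidney was 1.26. The causes of these shifts were not tested. For the tissue difference, DESeq2 passed 4 of the 46 genes in B6, 2 in CAST, 3 in F1 and 11 averaged over genotypes. Of all genes DESeq2 passed 1854 of 22526, 1067 of 20371, 1351 of 23993 and 4110 of 21421 in that order. In limma as tested, 844, 542, 295 and 3092 of all genes passed. Without the libraries that stood apart 6 passed in B6, 10 in F1 and 14 averaged. The fits without the libraries that stood apart keep a single TM library in B6 or F1 liver, or in both. Each also passed more of all genes than as tested, so the higher counts are not specific to the 46. In CAST 0 passed with a pseudocount of 0.5, without a filter, with TMM scaling, without trend, with edgeR and with the replicate block. For the genotype difference in liver DESeq2 passed 2, and 104 of all 20157 genes.

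With the replicate number as a block the counts called higher were 36, 35 and 36 in B6, CAST and F1 liver and 34, 38 and 38 in kidney, and 4 genes passed the averaged tissue difference. In CAST kidney the block raised the calls over all genes to 4692, against 2916 without it. Beyond the genes given above, the block is not read as pairing in liver, where 2 numbers at most are shared, or in F1 kidney.

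Leaving out 1 library in turn gave 15 to 29 genes called higher in B6 liver, 20 to 35 in CAST liver and 5 to 29 in F1 liver. The median log2 fold change of the 46 was 0.95 to 1.31 in CAST liver and 1.07 to 1.23 in CAST kidney. The tissue difference passed for 0 to 2 genes in B6, 0 to 1 in CAST, 0 to 1 in F1 and 3 to 8 averaged. Liver groups of 2 or 3 libraries limit what can be called, and the lone library left in some of these fits is assumed to vary like the others.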

Other observations

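The F1 control level was set against the higher of the B6 and CAST control levels, from tables that were normalized separately and, for F1, aligned with another program. Over the 46 genes the median ratio was 0.768 in liver and 0.696 in kidney. Fbl, the methyltransferase of the box C/D snoRNP, stood at 3.99 in liver and 2.75 in kidney, and Npm1, nucleophosmin, at 3.33 in liver and 3.14 in kidney. Wdr12 stood at 1.85 in liver and 1.29 in kidney. Pes1 stood at 1.36 in liver and 1.34 in kidney, and Nop56 at 0.872 in liver and 0.945 in kidney. With the 3 genes before them, these are the 5 of the 46 with a near-identical copy over at least 700 bases. F1 controls were above both parents in 4 of these 5 and below the higher parent in Nop56. Among genes without such a copy, Gar1 (1.33) and Nhp2 (1.03) were above both parents in kidney. In liver Dkc1 (1.11), Rrp1b (1.11), Ncl (1.008) and Ddx10 (1.005) were. The remaining genes without a copy were below the higher parent in both tissues. The part of the copies was not tested. Genotype and aligner cannot be told apart here.

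Over the 40 genes with a promoter window, the median of the mean log2 fold change was 1.31 for the 11 with an E-box and 1.13 for the 29 without.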
